A study of Mus musculus with 13 samples.

Results

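The genes described here encode the secreted ligands, the cell surface receptors and the secreted inhibitors of the Wnt pathway, together with the Axin scaffold proteins. Membership was decided by gene symbol alone. Every gene of the array was taken whose symbol is a numbered Wnt, Fzd, Sfrp or Dkk, or Dkkl1, Wif1, Lrp5, Lrp6, Axin1 or Axin2. This gave 42 of the 16390 genes with a named probe, namely 19 ligands, 9 Frizzled receptors, 2 co-receptors, 10 secreted inhibitors and 2 Axins. Each of the 42 had 1 probe.

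Wnt proteins are secreted lipid-modified ligands that bind Frizzled receptors together with Lrp5 or Lrp6. In the canonical branch this stops the Axin-containing complex from marking beta-catenin for destruction, and beta-catenin then activates target genes, of which Axin2 is a standard readout. Sfrp proteins and Wif1 bind the ligands outside the cell, and most Dkk proteins act on the co-receptors. In the developing heart the pathway is needed early for mesoderm and is held back by such inhibitors when heart muscle forms, while Wnt5a and related ligands act largely without beta-catenin.

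The study asked how serum and added growth factors change fibroblasts that are being turned into cardiomyocyte-like cells (iCMs) by introduced heart transcription factors. RNA of mouse cells and tissues was hybridised, in a single colour, to 13 arrays, 1 array per condition. In this field GMT stands for Gata4, Mef2c and Tbx5, GMTMM for these with Mesp1 and Myocd, and MT for Mef2c and Tbx5. The GMT iCMs gave 6 arrays, at 2 and at 4 weeks after transduction. Each time was sampled in medium with fetal bovine serum (FBS), in serum-free medium (SF) and in serum-free medium with FGF2, FGF10 and VEGF (FFV). FFV thus differs from FBS in both serum and added factors, and from SF in the added factors. The GMT iCMs had been sorted for GFP driven by the alpha myosin heavy chain promoter, which selects cells with an active heart muscle promoter. GMTMM iCMs made from tail-tip fibroblasts (TTFs) were profiled in FBS and in FFV, and MT iCMs in FFV, with no time and no sort given for these 3 arrays. The remaining arrays held mouse embryonic fibroblasts (MEFs), TTFs, whole embryonic day 12 (E12) heart and whole postnatal day 1 (P1) heart. The labels name no starting cells for the GMT and MT iCMs, no strain and no number of animals or cultures.

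No condition was replicated, so a difference between single arrays has no replicate check. Levels are given as log2 of the quantile-normalised spot intensity, where the lowest level on any array was 5.65 and the median over all genes lay between 6.45 and 6.48. A level compares arrays for 1 probe, not probes with each other. Between 84.1% and 91.5% of probes were brighter than the blank spots (their mean plus 2 SD) on 12 arrays, but only 78.4% on the GMTMM FBS array. The array identifiers fell into 3 series, with the 6 GMT arrays and E12 heart in the first, MEF and P1 heart in the second, and TTF, GMTMM and MT in the third. The median spot was 2.70 to 3.46 times the mean blank in the first and second series, and 1.54 to 1.65 times in the third. Comparisons across series therefore cannot be told apart from array series.

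The labels were checked against marker genes, as sums of the authors' deposited values. The 7 heart muscle markers summed to 40298 to 65994 on the GMT arrays, 52795 in E12 heart and 73159 in P1 heart, against 62.5 in MEFs and 17.9 in TTFs. They summed to only 350 on the GMTMM FBS array, 1436 on the GMTMM FFV array and 7389 on the MT array. In log2 levels the heart muscle markers did not move as one. Pln was 6.02 to 6.16 on the GMT arrays, against 11.44 in E12 heart, 13.26 in P1 heart, 6.01 in MEFs and 6.06 in TTFs. Myh6, Ttn and Actn2 were also lower on every GMT array than in both hearts. Myl7 was higher on every GMT array than in both hearts, and Tnnt2 and Ryr2 had GMT arrays on either side of E12 heart. The 8 fibroblast markers summed to 961 to 4102 on the GMT arrays, 25788 in MEFs, 31639 in TTFs, 22791 and 20674 on the GMTMM FBS and FFV arrays and 9397 on the MT array. In RNA of whole cell populations, fewer cells of a type and less RNA per cell cannot be told apart.

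Promoter sequence was available in the RefSeq table (GRCm38.p6) for 27 of the 42 genes. The 200 bases just before the annotated gene are printed for Wnt16, Wnt7a, Dkk2 and Fzd4. These are some of the genes with differences between media described below, and others, such as Sfrp1 and Sfrp2, are not printed. Each is written 5′ to 3′ on the strand of its gene, and capitals mark the matches to 3 core promoter motifs on either strand. The TATA box was searched as the letters TATAAA. The CCAAT box was searched as the letters of its name. The GC box was searched as the letters GGGCGG.
Wnt16: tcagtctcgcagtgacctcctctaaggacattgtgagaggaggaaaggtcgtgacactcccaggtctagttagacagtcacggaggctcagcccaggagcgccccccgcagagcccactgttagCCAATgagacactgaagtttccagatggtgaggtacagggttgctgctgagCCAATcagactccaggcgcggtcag
Wnt7a: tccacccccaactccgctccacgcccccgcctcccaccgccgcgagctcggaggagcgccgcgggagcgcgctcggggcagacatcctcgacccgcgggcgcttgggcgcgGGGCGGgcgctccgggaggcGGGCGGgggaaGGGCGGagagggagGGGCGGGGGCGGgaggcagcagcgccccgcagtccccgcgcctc
Dkk2: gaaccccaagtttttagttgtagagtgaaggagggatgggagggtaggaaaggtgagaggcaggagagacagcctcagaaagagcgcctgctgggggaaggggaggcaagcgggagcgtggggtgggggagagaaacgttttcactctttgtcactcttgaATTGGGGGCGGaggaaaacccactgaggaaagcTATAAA
Fzd4: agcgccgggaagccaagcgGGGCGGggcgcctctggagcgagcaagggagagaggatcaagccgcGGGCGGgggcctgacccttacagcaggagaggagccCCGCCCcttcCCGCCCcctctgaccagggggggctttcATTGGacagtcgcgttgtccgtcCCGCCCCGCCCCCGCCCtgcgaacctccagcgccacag
The Wnt16 window lies at chr6:22287978-22288177 on the plus strand and held 2 CCAAT boxes and no GC box. The Wnt7a window, at chr6:91411354-91411553 on the minus strand, had a GC content of 82% and held 5 GC boxes. The Dkk2 window, at chr3:132085066-132085265 on the plus strand, ended in a TATA box and held a CCAAT box directly followed by a GC box. The Fzd4 window, at chr7:89404166-89404365 on the plus strand, held 7 GC boxes, of which 2 neighbours shared 1 base, and 1 CCAAT box. Over all 32851 promoters of the table, a TATA box was in 9.96%, a CCAAT box in 29.3% and a GC box in 31% of windows of this length. Among the 30 windows of the genes described here, they were in 3, 8 and 21. None of the 4 printed windows held any of 6 further motifs. The TCF/LEF motif, searched as CTTTGAT, occurred in 2.45% of all windows. The motif of T-box factors, searched as AGGTGT, occurred in 9.32%. For GATA factors the letters AGATAA occurred in 7.8%. For AP-1 the letters TGANTCA occurred in 5.48%. The MEF2 motif occurred in 0.414% and the SRF CArG box in 1.18%. A match or its absence describes these letters only.

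Most of the 42 genes stayed dim and even across the 13 arrays. Ranges of at least 2 (log2) occurred in 2 of 19 ligands, 1 of 9 receptors and 4 of 10 secreted inhibitors. On all 13 arrays, 33 genes were brighter than the blanks, and Wnt7b, Wnt8a and Dkk4 were so on none. The level of 25 genes never exceeded the lowest level on any array by more than 1. The median range over the 13 arrays was 0.47, against 0.75 for all genes. A range of at least 2 was reached by 7 of the 42 genes (16.7%) and by 2070 of 16381 genes (12.6%). These 7 were Dkk2 with a range of 5.49, Sfrp2 with 5.01, Sfrp1 with 4.09, Fzd6 with 3.49, Wnt5a with 3.04, Dkk3 with 2.64 and Wnt16 with 2.53. Of these 7, 4 are secreted inhibitors.

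**Figure D1:**
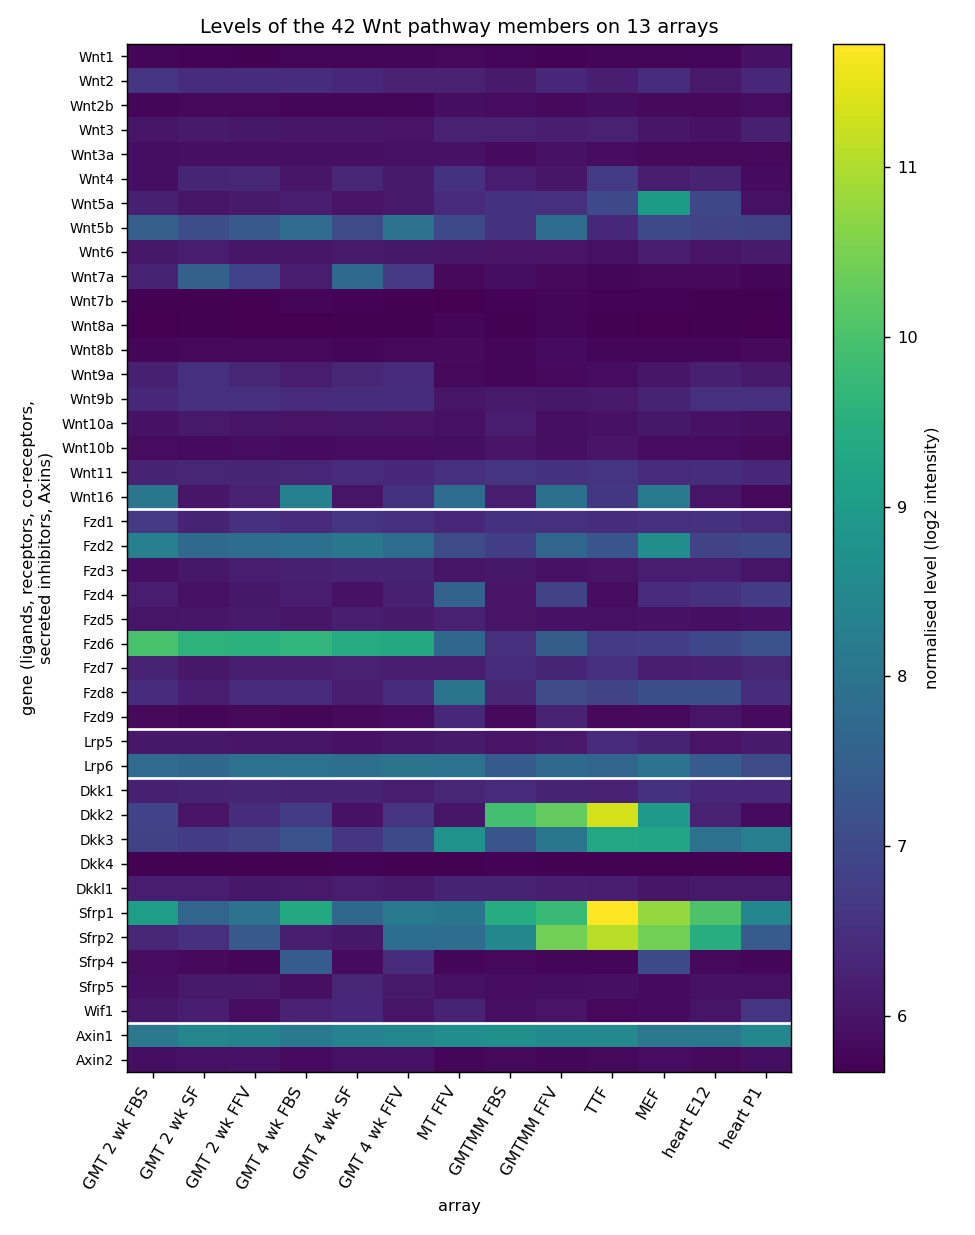
Level (log2 normalised intensity, colour) of each of the 42 genes (rows, by role) on each of the 13 arrays (columns). Colours are to be read along a row; Fzd6 is bright on the 6 GMT arrays, and Dkk2, Sfrp1 and Sfrp2 are brightest in TTFs.

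Among the ligands, Wnt16, known in mouse for limiting bone loss, had the largest differences between media. Its level on the GMT arrays was 8.05 in FBS, 6.05 in SF and 6.23 in FFV at 2 weeks, and 8.33, 6.02 and 6.55 at 4 weeks. It was 6.13 on the GMTMM FBS array, 7.90 on the GMTMM FFV array, 7.82 on the MT FFV array, 8.12 in MEFs, 6.66 in TTFs, 6.01 in E12 heart and 5.80 in P1 heart. Both GMT FBS arrays were thus high and all 4 other GMT arrays low, while for GMTMM the FFV array was high and the FBS array low. In the authors' deposited table, which is on a linear scale, the GMT values were 141 and 194 in FBS, 9.74 and 9.83 in SF, and 15.6 and 31.6 in FFV, and the GMTMM values were 11.1 in FBS and 152 in FFV.

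Wnt7a, a ligand known in muscle and neural development, showed the reverse order of media in GMT iCMs. Its level was 6.28 in FBS, 7.52 in SF and 6.89 in FFV at 2 weeks, and 6.14, 7.73 and 6.67 at 4 weeks. On the other 7 arrays it lay between 5.78 and 5.89. SF was therefore the highest medium and FBS the lowest at both times, and every GMT array was above every other array. The 7 epicardial markers summed to 2525 and 1397 on the SF arrays, 1515 and 983 on the FFV arrays and 543 and 753 on the FBS arrays, in deposited values at 2 and 4 weeks, with none of the 7 within the blanks. The sum was carried by Msln, a mesothelial surface protein, with levels of 11.55 and 10.66 in SF against 8.72 and 9.14 in FBS. The list did not move as one: in SF against FBS 2 of the 7 rose and 2 fell (limma, GMT arrays alone), with a median difference of -0.05, and Aldh1a2 had levels of 6.43 and 6.45 in SF against 7.58 and 7.83 in FBS. Their part in the Wnt7a difference was not tested.

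Wnt5a, the ligand best known for signalling without beta-catenin, was highest in MEFs. Its level was 8.98 in MEFs, 7.01 in TTFs, 6.97 in E12 heart and 5.94 in P1 heart. The 6 GMT arrays lay between 6.0 and 6.20, and the levels were 6.55 on the GMTMM FBS array, 6.50 on the GMTMM FFV array and 6.40 on the MT array. All iCM arrays were thus below both fibroblast arrays. Its close relative Wnt5b was 7.49, 7.11 and 7.35 in FBS, SF and FFV at 2 weeks and 7.78, 7.06 and 7.97 at 4 weeks, 6.53 and 7.80 on the GMTMM FBS and FFV arrays, 7.01 on the MT array, 7.01 in MEFs, 6.35 in TTFs, 6.92 in E12 heart and 6.87 in P1 heart. Wnt5b was lowest in SF at both times.

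The other ligands above the blanks varied less. Wnt4 ranged from 5.86 to 6.70, Wnt9a from 5.79 to 6.50, Wnt9b from 6.02 to 6.52, Wnt2 from 6.09 to 6.57 and Wnt11, which acts in heart formation, from 6.24 to 6.61. Wnt3 ranged from 5.98 to 6.24, Wnt1 from 5.72 to 5.96, Wnt6 from 5.94 to 6.14 and Wnt10a from 5.93 to 6.13. Wnt10b ranged from 5.82 to 5.99, Wnt3a, a classic activator of beta-catenin, from 5.80 to 5.97, Wnt2b from 5.77 to 5.89 and Wnt8b from 5.75 to 5.85. None of these 13 ligands ranged by more than Wnt4, and Wnt1 passed the blanks on only 8 arrays.

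Among the receptors, Fzd6, a Frizzled known for orienting hair follicles, was high on the GMT arrays alone. Its level was 9.99, 9.58 and 9.54 in FBS, SF and FFV at 2 weeks and 9.66, 9.39 and 9.33 at 4 weeks. It was 7.70 on the MT array, 7.46 and 6.50 on the GMTMM FFV and FBS arrays, 7.19 in P1 heart, 6.99 in E12 heart, 6.76 in MEFs and 6.73 in TTFs. Every GMT array was thus above every array of any other kind. The brightness of the glass around the Fzd6 spot was also higher on the GMT arrays, at 181 to 606 against 615 to 1094 for the spot, than elsewhere, where it was 20.5 to 109 against 72.9 to 208 for the spot. On the GMT SF array of 4 weeks the spot read 655 and its surround 606. The part of this surround in the spot's level was not tested.

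Fzd4 and Fzd8 were highest on the MT array, at 7.58 and 8.0. Fzd4, a receptor known for blood vessel growth in the retina, was 6.14, 5.94 and 6.07 in FBS, SF and FFV at 2 weeks and 6.12, 5.96 and 6.20 at 4 weeks, 6.0 and 6.92 on the GMTMM FBS and FFV arrays, 6.40 in MEFs, 5.87 in TTFs, 6.54 in E12 heart and 6.73 in P1 heart. Fzd8 was 6.46, 6.13 and 6.41 in GMT iCMs at 2 weeks and 6.38, 6.15 and 6.44 at 4 weeks in the same order, 6.32 and 7.04 on the GMTMM FBS and FFV arrays, 7.13 in MEFs, 6.91 in TTFs, 7.12 in E12 heart and 6.46 in P1 heart. Both receptors were thus higher on the GMTMM FFV than on the GMTMM FBS array, and the 6 GMT arrays were all below the GMTMM FFV array. Fzd9 was 5.84, 5.77 and 5.81 in GMT iCMs at 2 weeks and 5.78, 5.83 and 5.87 at 4 weeks, 5.82 and 6.27 on the GMTMM FBS and FFV arrays, 6.34 on the MT array, 5.80 in MEFs, 5.81 in TTFs, 6.01 in E12 heart and 5.84 in P1 heart.

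Fzd2 ranged from 6.79 on the GMTMM FBS array to 8.67 in MEFs, and the 6 GMT arrays lay between 7.76 and 8.30. Fzd1 ranged from 6.28 to 6.67, Fzd3 from 5.93 to 6.26, Fzd5 from 5.93 to 6.23 and Fzd7 from 6.05 to 6.52. Of the co-receptors, Lrp5 ranged from 5.97 to 6.42 and Lrp6 from 7.09 in P1 heart to 8.0 on the GMT FFV array of 4 weeks. Of the 9 Frizzled genes, Fzd2, Fzd4, Fzd6 and Fzd8 ranged by 1.71 to 3.49.

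The secreted inhibitors Sfrp1, Sfrp2, Dkk2 and Dkk3 were highest in fibroblasts. Sfrp1 was 11.73 in TTFs, 10.76 in MEFs, 10.03 in E12 heart, 8.47 in P1 heart, 9.42 and 9.76 on the GMTMM FBS and FFV arrays and 8.03 on the MT array. On the GMT arrays it was 9.06, 7.64 and 7.98 in FBS, SF and FFV at 2 weeks and 9.35, 7.70 and 8.12 at 4 weeks. Sfrp1 thus divided the GMT arrays as Wnt16 did, with both FBS arrays above all 4 others. Its spots on the GMT FBS arrays read 552 and 682 with surrounds of 362 and 497. On the 4 other GMT arrays they read 156 to 248 with surrounds of 80.2 to 108.

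Sfrp2, a related Wnt-binding protein, was high in FFV. It was 6.33, 6.51 and 7.37 in FBS, SF and FFV at 2 weeks and 6.17, 6.05 and 7.86 at 4 weeks, so that both FFV arrays were above all 4 other GMT arrays. It was 8.50 and 10.44 on the GMTMM FBS and FFV arrays, 7.83 on the MT array, 11.07 in TTFs, 10.45 in MEFs, 9.45 in E12 heart and 7.42 in P1 heart. FFV was the higher medium in all 3 pairs.

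Dkk2, which can inhibit or activate through the co-receptors depending on the cell, was highest in TTFs and in the iCMs made from them. It was 11.34 in TTFs, 10.28 and 9.90 on the GMTMM FFV and FBS arrays and 8.93 in MEFs. On the GMT arrays it was 6.88, 5.98 and 6.47 in FBS, SF and FFV at 2 weeks and 6.74, 5.96 and 6.59 at 4 weeks, with 6.0 on the MT array, 6.23 in E12 heart and 5.86 in P1 heart. SF was the lowest medium at both times.

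Dkk3, a divergent member of the Dickkopf family, was 9.27 in TTFs, 9.26 in MEFs, 8.77 on the MT array, 8.28 in P1 heart and 7.96 in E12 heart. It was 7.26 and 8.05 on the GMTMM FBS and FFV arrays, 6.87, 6.72 and 6.90 in GMT iCMs in FBS, SF and FFV at 2 weeks and 7.20, 6.62 and 7.03 at 4 weeks. All 6 GMT arrays were below every other array. The Dkk3 spot in TTFs read 698 with a surround of 621, and in MEFs 607 with a surround of 97.2.

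Sfrp4 was 7.43 on the GMT FBS array of 4 weeks, 7.01 in MEFs and 6.43 on the GMT FFV array of 4 weeks, and lay between 5.74 and 5.87 on the other 10 arrays. The 8 measured macrophage markers summed to 1408 on the GMT FBS array of 4 weeks and to 7549 in MEFs, but to 3240 in TTFs and 4148 on the GMTMM FBS array, where Sfrp4 was low, and to 139 to 285 on the other GMT arrays. On the GMT SF and FFV arrays 1 of the 8 was within the blanks. Their part was not tested.

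Wif1, the Wnt inhibitory factor, was 6.07, 6.19 and 5.87 in FBS, SF and FFV at 2 weeks and 6.23, 6.35 and 6.01 at 4 weeks, 5.93 and 5.98 on the GMTMM FBS and FFV arrays, 6.27 on the MT array, 5.85 in MEFs, 5.79 in TTFs, 6.0 in E12 heart and 6.61 in P1 heart. Sfrp5, a Wnt-binding inhibitor of the early heart region, was 5.91, 6.09 and 6.08 in GMT iCMs at 2 weeks and 5.93, 6.31 and 6.07 at 4 weeks, and lay between 5.85 and 5.95 on the 7 other arrays. The 4 GMT arrays in SF or FFV were thus the highest for Sfrp5. Dkk1, a potent blocker of the co-receptors, ranged only from 6.16 to 6.53, and Dkkl1 from 6.02 to 6.24.

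Axin1 ranged from 8.07 to 8.71, and Axin2 only from 5.78 to 5.96. Axin2 passed the blanks on 12 arrays, and its deposited values lay between 1.61 and 8.25, where the median probe of an array stands at about 25. In the GMT arrays alone Axin2 differed by 0.08 for FFV and 0.06 for SF against FBS, which did not pass (limma adjusted p = 0.156 and 0.162).

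**Figure D2:**
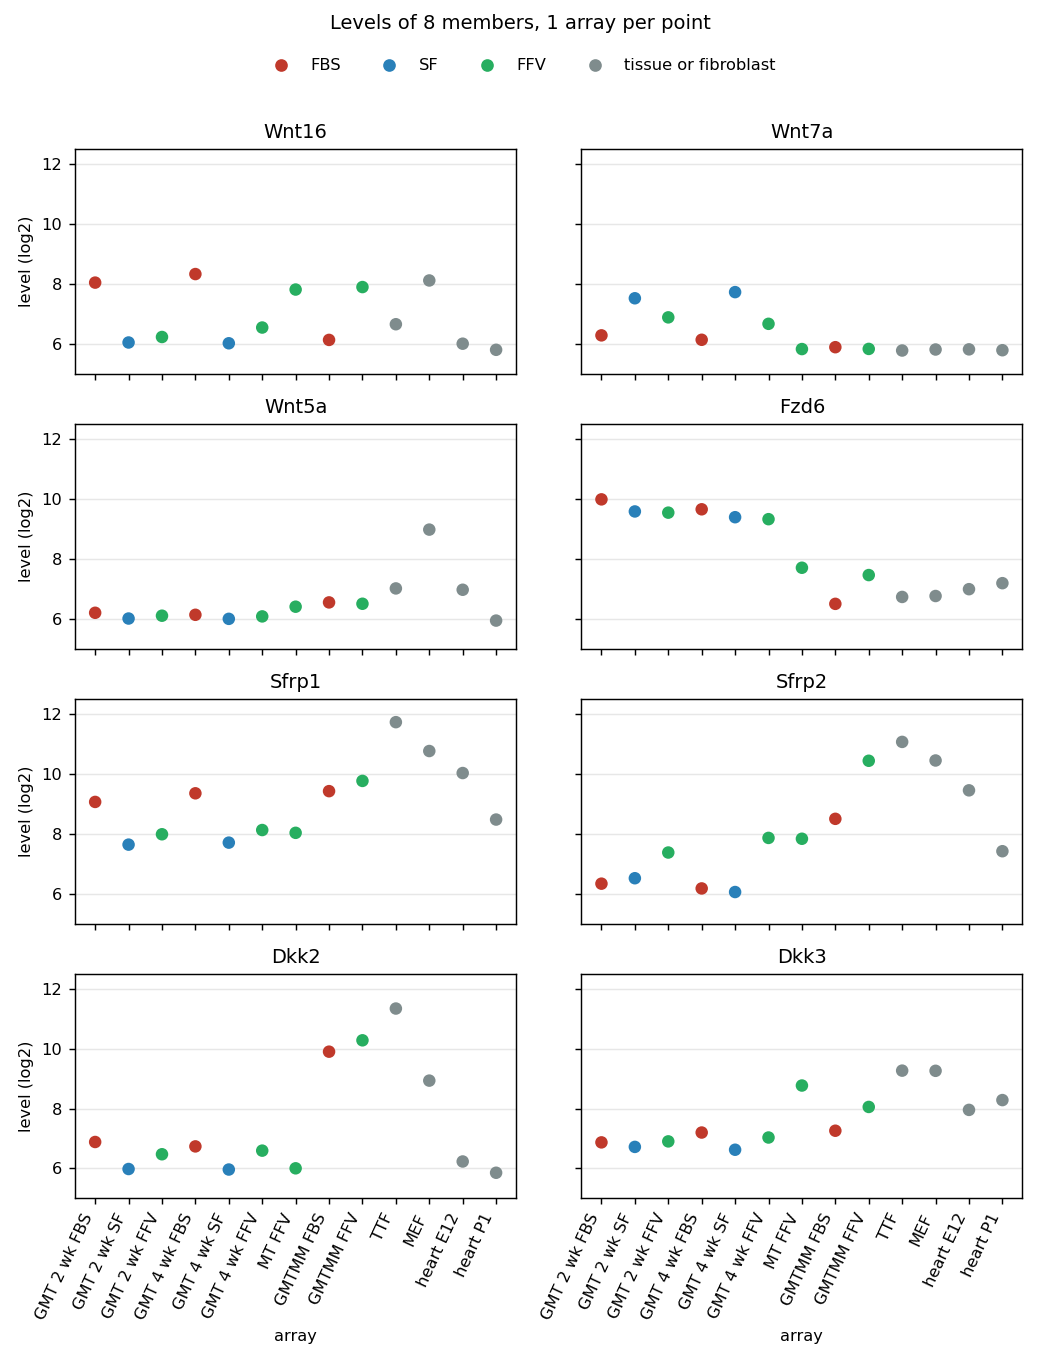
Level (log2 normalised intensity, vertical axis) of 8 genes on each of the 13 arrays (horizontal axis), coloured by medium; each point is 1 array. Wnt16 and Sfrp1 are high on both GMT FBS arrays, Wnt7a on both GMT SF arrays, Fzd6 on all 6 GMT arrays, and Sfrp1, Sfrp2, Dkk2 and Dkk3 in fibroblasts.

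Media were compared first on the 8 iCM arrays with a pair in another medium, with the context (GMT 2 weeks, GMT 4 weeks or GMTMM) as a block. The contexts stood in for replicates, with 3 residual degrees of freedom, and the test was limma's with Benjamini-Hochberg adjustment over 15249 genes. None of the 39 genes that could be tested passed an adjusted p of 0.05 for FFV against FBS, where 0.0393% of all genes did, and 1 had an unadjusted p under 0.05 (10.7% of all genes). This was Sfrp2, which differed by 1.56 ± 0.22 (log2, SE), 2.94-fold, and was higher in 3 of 3 pairs (limma adjusted p = 0.146). For SF against FBS none passed (0.0459% of all genes did) and 6 had an unadjusted p under 0.05 (13% of all genes), led by Wnt7a with a difference of 1.31 ± 0.19, higher in 2 of 2 pairs (limma adjusted p = 0.108). For FFV against SF none passed, 0% of all genes passed, and 4 of 39 had an unadjusted p under 0.05 (5.03% of all genes), led by Sfrp2 with 1.43 ± 0.25 (limma adjusted p = 0.866). The median difference of the 39 genes was 0.04 for FFV against FBS, 0.00 for SF against FBS and 0.01 for FFV against SF, against 0.00, 0.01 and -0.01 over all genes.

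Within the 6 GMT arrays alone, which share an array series, Wnt16 and Sfrp1 were lower in both other media than in FBS. This fit leaves out the GMTMM arrays and was added after the data were seen. Its spread is how far the medium differences disagree between 2 and 4 weeks (2 residual degrees of freedom, 15040 genes). Limma draws this spread toward that of genes of like level. For SF against FBS, 2 of 39 genes rose and 5 fell, and 11% of all genes were called (5.05% rose and 5.96% fell). Wnt16 fell by 2.16 ± 0.12 (log2, SE), 4.46-fold (limma adjusted p = 0.00146), and Sfrp1 fell by 1.54 ± 0.11, 2.90-fold (limma adjusted p = 0.00284). Wnt7a rose by 1.42 ± 0.13, 2.67-fold (limma adjusted p = 0.00418), and Dkk2 fell by 0.84 ± 0.08, 1.79-fold (limma adjusted p = 0.00506). The other 3 calls were small: Sfrp5 rose by 0.29, Fzd8 fell by 0.28 and Wnt5a fell by 0.16. Of the 8 fibroblast markers, 5 fell and none rose in the same comparison, and none of the 8 was within the blanks on any array. In the same comparison 2 of 7 heart muscle and 2 of 4 smooth muscle markers rose, and 1 of 8 macrophage markers fell. The part of these cell types in the falls of Sfrp1 and Dkk2 was not tested.

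For FFV against FBS in the same 6 arrays, 1 of 39 genes rose and 3 fell, with 4.14% of all genes called (1.78% rose and 2.36% fell). Wnt16 fell by 1.80 ± 0.12, 3.49-fold (limma adjusted p = 0.00473), and Sfrp1 fell by 1.15 ± 0.11, 2.22-fold (limma adjusted p = 0.00884). Sfrp2 rose by 1.36 ± 0.21, 2.57-fold (limma adjusted p = 0.0274), and Wif1 fell by 0.21 ± 0.04 (limma adjusted p = 0.0393). Here 1 of the 8 fibroblast markers fell and none rose, 2 of 7 heart muscle markers rose, and 1 of 7 epicardial markers rose and 2 fell. No call of either comparison was left with the local surround subtracted or with the deposited table, and with the surround subtracted the Wif1 difference was -0.00142. The Sfrp1 differences were then -0.42 in FFV and -0.67 in SF. Wnt16 differed by -1.29 in FFV and -1.54 in SF, and Sfrp2 by 1.33 in FFV. Wnt7a differed by 0.64 in SF, where its spots read 141 and 178 with surrounds of 104 and 133. With the deposited table the differences were larger than in the main fit. Wnt16 then differed by -2.90 in FFV and -4.08 in SF, Sfrp2 by 2.54 in FFV and Wnt7a by 2.70 in SF. Without a mean-variance trend, 0 genes were called for FFV and 4 for SF. Both comparisons share the FBS arrays.

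**Figure D3:**
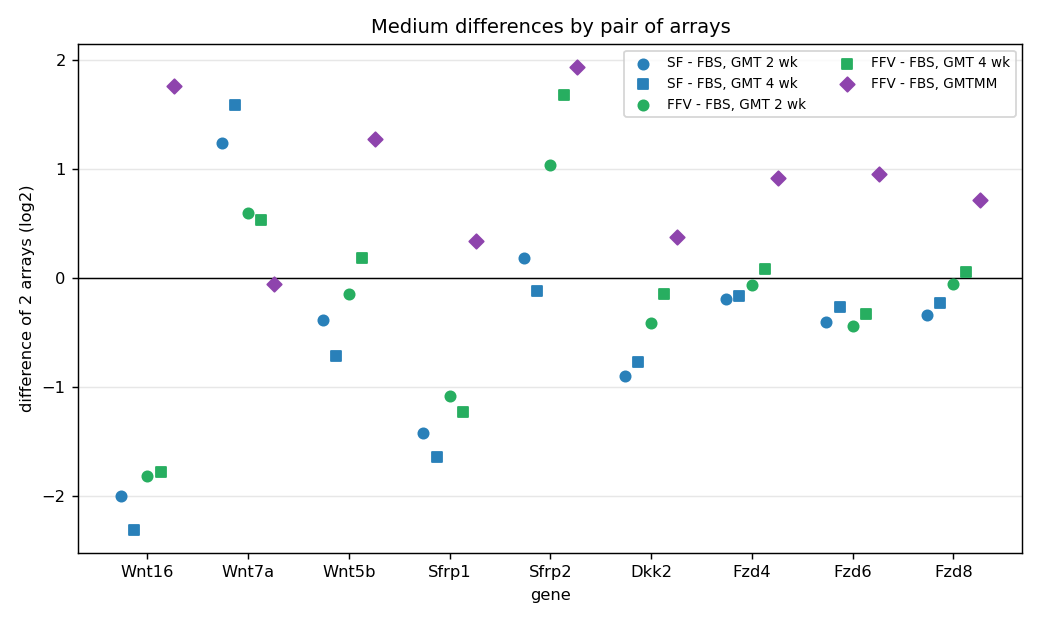
Difference between 2 arrays in another medium (log2, vertical axis) for 9 genes (horizontal axis); each point is 1 pair, with colour for the medium or factor set and shape for the time. For Wnt16 all 4 GMT points lie between -2.31 and -1.79 and the GMTMM point at 1.77; for Sfrp2 all 3 FFV points are above 1.

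In GMTMM iCMs Wnt16 was higher in FFV than in FBS, the reverse of GMT iCMs. An added term for the difference between FFV and FBS in GMTMM less that in GMT called 8 of 39 genes, all of them higher in GMTMM, and 9.59% of all genes (5.43% higher and 4.16% lower; limma, 2 residual degrees of freedom, chosen after the data were seen). The term fits the single GMTMM pair exactly, so that its SE and p take their spread from the GMT arrays alone and assume that GMTMM arrays vary alike. Wnt16 differed by 3.57 ± 0.20 (log2, SE), being 1.77 higher in FFV in GMTMM and 1.80 lower in GMT (limma adjusted p = 0.000452). Fzd4 differed by 0.91 ± 0.09 (limma adjusted p = 0.00363) and Sfrp1 by 1.5 ± 0.20 (limma adjusted p = 0.0100). The other 5 were Fzd6, Wnt5b, Fzd8, Fzd9 and Wif1, with differences from 0.26 to 1.35. Fzd9 was not well above background on the GMTMM FBS array, so it was at least 1.36-fold higher in FFV in GMTMM. The GMTMM side is 1 pair of arrays that includes the dim GMTMM FBS array, on which 33 of the 42 genes passed the blanks against 37 on the GMTMM FFV array. The macrophage markers summed to 4148 on that FBS array and to 146 on its FFV pair, and their part and that of the dim array were not tested. GMTMM and GMT arrays are also of different series, and no time or sort was given for GMTMM. The factor set cannot be told apart from these, nor from the starting cells, which the labels name for GMTMM only. The count was 1 with the surround subtracted and 3 with the deposited table.

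Time was compared on the 6 GMT arrays with medium as a factor. None of 39 genes passed for 4 against 2 weeks in limma, where 0% of 15040 genes did, and 5 had an unadjusted p under 0.05 (8.79% of all genes). These were Wif1, Fzd3 and Sfrp4, higher by 0.15, 0.18 and 0.75, and Wnt2 and Fzd6, for which the differences were -0.15 and -0.25 (limma adjusted p = 0.550 for each). The spread behind these differences is how far they disagree between media, drawn by limma toward that of genes of like level.

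GMT iCMs had lower levels of 4 inhibitors and of Wnt5a, and a higher level of Fzd6, than MEFs. These comparisons have 1 array on at least 1 side and no test; a gene was counted where it was at least 2-fold apart in the same direction in every pair. Against MEFs, 1 of 39 genes was higher and 5 lower on all 6 GMT arrays, and 4.88% of 15599 genes were apart in this way (1.97% higher and 2.92% lower). Fzd6 was 7.07-fold higher on average, with differences of 2.57 to 3.23 (log2). Sfrp2 was 13.3-fold lower, Wnt5a 7.42-fold, Dkk2 5.64-fold, Sfrp1 5.48-fold and Dkk3 5.17-fold lower. The fibroblast markers summed to 961 to 4102 on the GMT arrays against 25788 in MEFs, their part was not tested, and the arrays are of different series. The median difference of the 39 genes was -0.01, against 0.01 for all genes.

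E12 heart, in the same array series as the GMT arrays, had less Fzd6 and more Sfrp2 than they did. Of 39 genes 1 was higher and 1 lower on all 6 GMT arrays, and 6.87% of 15636 genes were apart (3.19% higher and 3.68% lower). Fzd6 was 6.04-fold higher and Sfrp2 6.64-fold lower. The 7 endothelial markers summed to 73.4 to 120 on the GMT arrays against 1341 in E12 heart, and the fibroblast markers to 961 to 4102 against 6005; their part was not tested. Against P1 heart, Fzd6 was 5.25-fold higher and Dkk3 2.62-fold lower, 1 gene each way, where 7.03% of 15626 genes were apart. With the surround subtracted Fzd6 was still higher on average by 1.74 against MEFs, 2.34 against E12 heart and 2.23 against P1 heart (log2), but no longer at least 2-fold in every pair. The Dkk3 difference from P1 heart was then 0.00695 in place of -1.39.

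**Figure D4:**
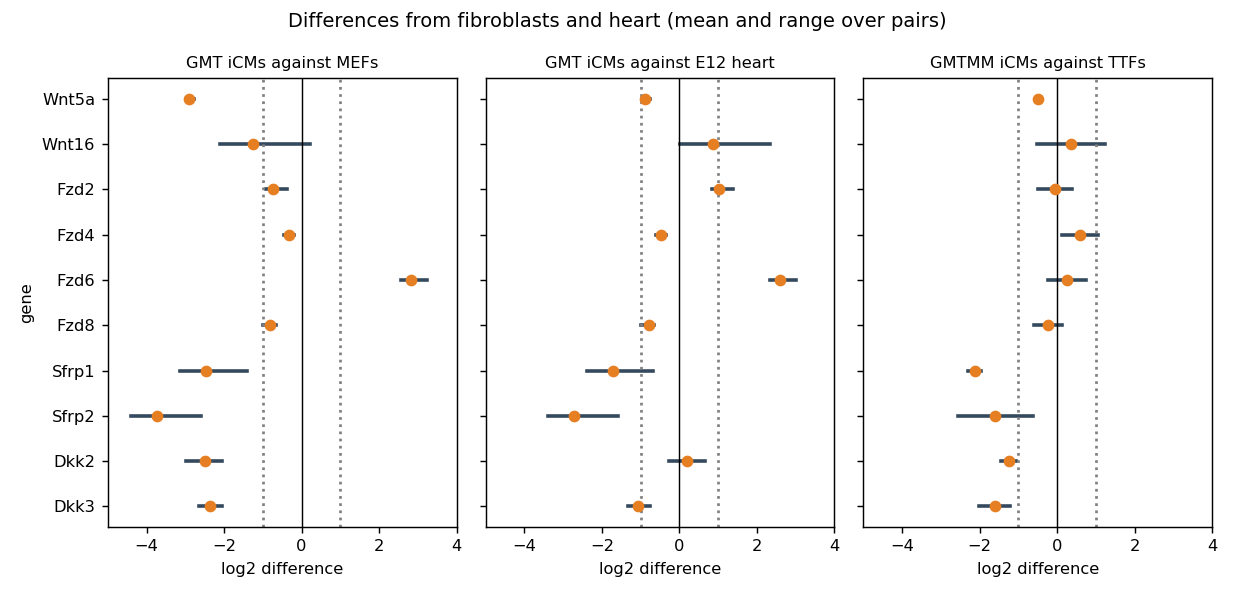
Differences (log2, horizontal axis) of 10 genes (vertical axis) between GMT iCMs and MEFs, GMT iCMs and E12 heart, and GMTMM iCMs and TTFs. Points are means over pairs, bars run from the lowest to the highest pair, and dotted lines mark 2-fold; Fzd6 lies to the right of 2-fold in the GMT panels and Sfrp1, Dkk2 and Dkk3 to the left in the MEF and TTF panels.

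The inhibitors Sfrp1, Dkk3 and Dkk2 were lower in GMTMM iCMs than in the TTFs they were made from. Sfrp1 was 4.39-fold lower, Dkk3 3.05-fold and Dkk2 2.38-fold lower than in TTFs in both pairs. These were 3 of 38 genes, with none higher, where 1.91% of 15237 genes were apart (0.893% lower and 1.02% higher). The Dkk3 difference was 0.0193 in place of -1.61 with the surround subtracted. The fibroblast markers summed to 22791 and 20674 on the GMTMM arrays against 31639 in TTFs.

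MT iCMs in FFV had higher Fzd8 and Fzd4 and lower Fzd6 than GMT iCMs in FFV. Dkk3 was 3.48-fold higher, Fzd8 2.99-fold, Fzd4 2.72-fold and Wnt16 2.69-fold higher, and Fzd6 was 3.32-fold lower than in both GMT FFV arrays. These were 4 higher and 1 lower of 39 genes, where 4.68% of 15386 genes were apart (2.75% higher and 1.93% lower). Only Fzd8 was at least 2-fold apart in both pairs with the surround subtracted. The Dkk3 difference was then 0.29 in place of 1.80 (log2), the MT spot reading 465 with a surround of 369. The 4 smooth muscle markers summed to 34343 on the MT array and to 6667 and 5733 on the GMT FFV arrays. None of these 4 was within the blanks. The heart muscle markers summed to 7389 against 51768 and 64404, and the fibroblast markers to 9397 against 2195 and 4102. Within the fibroblast list, Lum and Dcn had levels of 7.09 and 9.48 on the MT array, below both GMT FFV arrays. The part of these cell types was not tested. The arrays are of different series and no sort was given for MT, so factor set, sort and series cannot be told apart.

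Between the hearts, Sfrp2, Sfrp1 and Wnt5a were lower at P1 than at E12, 4.09-fold, 2.94-fold and 2.04-fold. These were 3 of 39 genes, with none higher, where 8.9% of 15510 genes were apart (4.61% higher and 4.29% lower). From E12 to P1 the endothelial marker sum went from 1341 to 2611, fibroblast from 6005 to 8196 and epicardial from 759 to 315. Alas2, the 1 measured erythroid marker of 4 listed, went from 77.2 to 343. Some genes moved against their sum. In level, endothelial Tie1 went from 10.27 to 9.53, fibroblast Pdgfra from 9.89 to 8.77 and epicardial Aldh1a2 from 7.44 to 8.08. The part of these cell types was not tested. Between the fibroblasts, Wnt5a was 3.90-fold, Wnt16 2.75-fold, Fzd2 2.64-fold and Sfrp4 at least 2.40-fold higher in MEFs, and Dkk2 was 5.31-fold higher in TTFs. The Sfrp4 bound sets the MEF level against the dimmest probe above the blanks in TTFs. These were 4 genes higher in MEFs and 1 higher in TTFs of 39, where 5.4% of 15401 genes were apart (2.8% and 2.6%). Each of these comparisons rests on 1 array a side in different series.

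Other genes of the pathway were followed in 5 lists. None of the genes tested in the lists passed in the 8-array comparisons or for time in limma. The unadjusted p was under 0.05 for 4 of 15 co-receptor and receptor turnover genes in FFV against FBS (10.7% of all genes). In SF against FBS it was so for 3 of 15 (13% of all genes). In the same order, the counts were 5 and 2 of 16 target and feedback genes and 1 and 2 of 9 extracellular modulators. They were 3 and 1 of 20 intracellular genes and 1 and 2 of 7 polarity genes. In the GMT arrays alone, 3 of 14 co-receptor and receptor turnover genes rose in SF and 1 fell, where 5.05% of all genes rose and 5.96% fell. They were Rspo3, an R-spondin that strengthens Wnt signals, which rose by 0.95, Kremen1 and Kremen2, which bind Dkk proteins, which rose by 0.43 and 0.33, and Lgr5, an R-spondin receptor, which fell by 0.64. Of the 8 tested genes for Wnt secretion and other extracellular modulators, Tpbg, a membrane inhibitor of Wnt signalling, fell by 0.51. Of 19 intracellular genes, Tnks, a tankyrase that promotes Axin breakdown, fell by 0.81, and of 7 planar cell polarity genes, Daam1, a formin, fell by 0.75 (log2, all limma adjusted p between 0.0124 and 0.0419).

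Of 16 beta-catenin target and feedback genes, Cdx2 rose by 0.58, and Ccn4, a matricellular target, fell by 0.88 in SF, as did Lgr5. In FFV, Ccn4 was the only gene of the 5 lists that was called, and fell by 1.12 ± 0.12 (limma adjusted p = 0.0114). Its level was 10.14, 9.22 and 9.10 in FBS, SF and FFV at 2 weeks and 9.68, 8.83 and 8.47 at 4 weeks, so that FBS was the highest medium at both times. The median difference of the target list in FFV was 0.10 and in SF 0.04. With the surround subtracted, no gene of the array was called for FFV or SF in the GMT arrays alone. None of the calls of the 5 lists in that fit was then left.

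In the difference of the FFV effect between GMTMM and GMT, 3 of 15 turnover genes were higher in GMTMM (Lgr5 by 2.08, Rspo2 by 1.56 and Ror1 by 0.38) and 1 lower (Rspo4, -0.22), where 5.43% of all genes were higher and 4.16% lower. Of 9 extracellular modulators Gpc3, a glypican, and Frzb, a Wnt-binding inhibitor, were higher by 2.06 and 0.50. Of the target list Lgr5 again, Ccn4 by 1.51 and Myc by 0.94 were higher, and Nkd2, a feedback inhibitor, was lower (-0.60). Pygo1 of the intracellular list was higher by 0.21 and Vangl2 of the polarity list lower (-0.28). The same dim GMTMM FBS array enters each of these.

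Lgr5 had the largest range of the lists. Its level was 10.40 in TTFs, 9.69 and 7.26 on the GMTMM FFV and FBS arrays, 7.75 in MEFs, 6.38 on the MT array, 5.76 in E12 heart and 5.71 in P1 heart, and 6.51 to 7.67 on the GMT arrays. Like Dkk2 it was highest in TTFs. Bambi, a target gene that encodes a pseudoreceptor, was 9.14 to 9.67 on the 6 GMT arrays, 8.63 in E12 heart, 7.95 in P1 heart and 6.78 to 7.48 on the other 5 arrays. Like Fzd6 it was highest on the GMT arrays, 4.27-fold above MEFs. Nkd1, a feedback inhibitor, was 9.67 on the MT array and between 6.64 and 7.95 elsewhere.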

How the data were processed

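RNA of 13 samples was measured on 1-colour Cy5 arrays, 1 per condition. Per the file headers, the deposited scanner files hold the median spot intensity at 635 nm and its local surround. The authors' deposited value table was found to be a straight line of that intensity, less the mean of the central 90% of the blank spots, scaled to a median of 25; it is missing near the blanks. The scanning and scaling software were not given in the sources used here. Here the spot intensity was corrected by normexp (offset 50), without subtracting the surround, which followed the spot itself (r between 0.884 and 0.962 over probes), log2-transformed and quantile normalised in limma 3.58.1 (R 4.3.3). These log2 values start from the deposited intensities. Of several probes of a gene, the one with the highest mean deposited value was used. Of 23473 probes, 16631 had 1 symbol in the platform annotation, and 3947 symbols were updated to current ones.

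Genes brighter than the blanks (mean plus 2 SD of 2736 spots) on at least 2 arrays of a comparison were tested by limma's moderated test with a mean-variance trend, two-sided, with Benjamini-Hochberg adjustment over all genes tested. The fit was checked on simulated data. Medium was tested on 8 arrays with context as a block, and time on 6. The fit to the GMT arrays alone and the term for GMTMM against GMT were added after seeing the data. Other comparisons had no test; there a gene was counted when all pairs differed by 2-fold or more in 1 direction and the higher array passed the blanks. The labels do not say whether samples came from separate cultures or animals. The p-values set the differences against how far they disagree between contexts, times or media. Limma draws each gene's spread toward that of genes of like level, so part of the spread comes from other genes.

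The gene set, with membership fixed by symbol, and the pathway and marker lists were chosen with earlier results of these data known. Genes are named with all arrays where they passed a test or ranged by at least 2 (log2), with a range where above the blanks, and by name only otherwise; other genes only from the fixed lists, where called or among the 4 with the largest range. Alternatives were median scaling, an offset of 16, the surround subtracted, the deposited table (log2, floor 5), another probe rule, no filter, no trend, and each context or medium left out. The number of arrays limits precision. Protein sequences are not used here, and gene coordinates were used only to place the printed promoter windows.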

Additional observations from a re-analysis of the deposited data

Results flagged for a closer look

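For 8 genes the difference between FFV and FBS was not the same in GMTMM iCMs as in GMT iCMs, by the added term in limma (8 arrays, 2 residual degrees of freedom). The GMTMM side is 1 pair, which the term fits exactly, so the SE and p take their spread from the GMT arrays alone and assume that GMTMM arrays vary alike. The values are GMTMM minus GMT on the log2 scale with their SE. Wnt16 differed by 3.57 ± 0.20 (limma adjusted p = 0.000452), with opposite signs of 1.77 in GMTMM and -1.80 in GMT. Sfrp1 differed by 1.5 ± 0.20 (limma adjusted p = 0.0100), with 0.34 in GMTMM and -1.15 in GMT. Fzd6 differed by 1.35 ± 0.20 (limma adjusted p = 0.0132), with 0.96 in GMTMM and -0.39 in GMT. Wnt5b differed by 1.25 ± 0.28 (limma adjusted p = 0.0450) and Fzd4 by 0.91 ± 0.09 (limma adjusted p = 0.00363), both with a GMT difference of at most 0.02. Fzd8 differed by 0.72 ± 0.11 (limma adjusted p = 0.0157), Fzd9 by 0.42 ± 0.06 (limma adjusted p = 0.0117), and Wif1 by 0.26 ± 0.06 (limma adjusted p = 0.0427). Fzd9 was not well above background on the GMTMM FBS array, so its GMTMM difference is a bound, at least 1.36-fold higher in FFV. The GMTMM FBS array had the lowest share of probes above the blanks of all 13. The factor set cannot be told apart from starting cells, sort, time or array series.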

How the results depend on the processing

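The labels give no replicate numbers, so no block by replicate could be fitted, and arrays were paired only by context or time. Of the results for single genes, 316 alternatives kept direction and side of the threshold, 61 lost the call, 4 gained it and 2 changed sign. Of the 316, 57 came from the other probe rule, which could not change the level of genes with 1 probe each. Both sign changes were Dkk3 with the surround subtracted: 0.00695 against P1 heart and 0.0193 for GMTMM against TTFs. Leaving out a context gave 0 to 4 genes for FFV against FBS and 0 to 7 for SF against FBS, where the upper counts are those without GMTMM. In GMT arrays alone, the 4 genes for FFV became 0 with the surround subtracted, 0 with the deposited table and 0 without trend; the 7 for SF became 0, 0 and 4. All genes called there fell from 622 and 1656 to 0 with the surround subtracted, and were 862 and 3256 with median scaling. Wif1 for FFV went from -0.21 to -0.00142 with the surround subtracted. The 8 genes that differed between GMTMM and GMT became 13 with median scaling, 1 with the surround subtracted, 3 with the deposited table and 4 without trend. With the deposited table, whose low values are spread more, the untested counts were 6 against E12 heart, 6 against P1 heart, 5 for GMTMM against TTFs, 11 for MT against GMT, 8 between hearts and 12 between fibroblasts. Against E12 heart an offset of 16 gave 4. Against P1 heart median scaling gave 1 and the surround subtracted 0, and the latter gave 1 for MT against GMT. The cause was not tested for any of these. Wnt16 in the GMTMM term ranged from 2.25 to 6.67, with limma adjusted p from 0.000270 to 0.0518. Dim spots limit what can be seen: 25 genes stayed within 1 log2 unit of the lowest level.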
